A study of Mus musculus with 4 samples.

Results

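Folh1 and 8 genes of folate uptake and cytosolic folate metabolism are described here in kidney tubular cells that lack Serpinb2. The 9 genes were Folh1, Folr1, Slc46a1, Slc19a1, Ggh, Fpgs, Shmt1, Mthfd1 and Aldh1l1, and every probe that carries one of these names in the scanner output was taken, which gave 14 of the 39429 probes for transcripts and 9 of the 29924 names that these probes carry. Folh1 was chosen because it was higher in SerpinB2-/- cells on these same arrays, so its difference is given as a description and without a test. The other 8 genes, with 13 probes, were chosen by function, though with earlier results of these data known. The question was whether they differed as well. The arrays held RNA from cultured primary tubular cells of the kidneys of male mice on the B6.J background, 8 weeks old, either wild type or SerpinB2-/-, with 2 samples of each genotype. All 4 samples had received the phorbol ester PMA at 100 ng/ml, which activates protein kinase C, and no untreated cells were measured, so every value below is a value under PMA.

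Dietary folate carries a chain of glutamates that must be cut off before the vitamin can cross a membrane. Folh1 encodes glutamate carboxypeptidase II, a membrane enzyme with its active site outside the cell that removes these glutamates, and in the brain it cleaves the peptide N-acetylaspartylglutamate (NAAG). It is also known as prostate-specific membrane antigen and is found in the brush border of the proximal tubule. Filtered folate is taken back in that segment by the receptor Folr1, while the carriers Slc46a1 and Slc19a1 move folate across membranes. Inside the cell Fpgs adds glutamates to hold folate there, Ggh removes them in lysosomes, and Shmt1, Mthfd1 and Aldh1l1 exchange the one-carbon units that folate carries in the cytosol.

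Each probe is an oligonucleotide of 60 bases. The opening 30 bases of 5 probes are shown, the single Folh1 probe on which its difference rests and the pairs for Slc19a1 and Shmt1, whose probes differed in the size of the genotype difference. No base is marked.
Folh1, A_55_P1963154: gccacaatagctgacaagttataatctatt
Slc19a1, A_51_P502152: caggccactgcgagtctgggttgtctattg
Slc19a1, A_52_P237792: cagttgcgtcctggggaaagcttcatcaca
Shmt1, A_52_P673499: ttgacatcccgaggacttttggaagaagac
Shmt1, A_55_P2186584: atgccaccctgtgggcttctcatgagaaga
In the coordinates of the array design (mm9), the Folh1 probe lies on chromosome 7 at 93867724 to 93867783 on the minus strand. The Slc19a1 probes lie on chromosome 10 at 76512874 to 76512933 and 76501259 to 76501318, 11615 bp apart, and the Shmt1 probes on chromosome 11 at 60603099 to 60603158 and 60620453 to 60620512, 17354 bp apart. No annotation of that build was used, so the exon or untranslated region that each probe falls in is not given. Folr1, Slc46a1 and Aldh1l1 also had 2 probes each, and Ggh, Fpgs and Mthfd1 had 1.

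Signals are given after each array was scaled to a common 75th percentile. Before scaling that percentile was 1903 to 2144 units. All 14 probes were well above background on all 4 arrays by the scanner software's own mark, and 2 of their 224 spots were left out as outliers. The spots of a probe on an array had a standard deviation (SD) of 0.07 on the log2 scale at the median, and of 0.52 at most, for the dimmer Folr1 probe. Serpinb2 itself read 3209 and 3276 units in wild type. Neither SerpinB2-/- sample stood well above background for it, at least 123-fold lower against the detection limit. Whether the 2 samples of a genotype came from separate animals or cultures is not stated, so the p-values cover the spread between these samples, which may be technical. A comparison of 2 samples with 2 allows no exact two-sided p under 0.333 for a single probe. The arrays of the 2 genotypes also held different positions on the slide, so position and genotype cannot be told apart.

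Folh1 read 173 and 149 units in the wild type samples and 819 and 1119 units in the SerpinB2-/- samples. Both SerpinB2-/- values lay above both wild type values, and the SerpinB2-/- samples differed more from each other than the wild type samples did (SD 0.32 against 0.15 on the log2 scale, n = 2 each). The difference was 2.58 ± 0.17 on the log2 scale (standard error of the limma fit, n = 2 per genotype), which is 5.97-fold, and of 18392 genes it was the second from the top. By the rule of its choice this is what set Folh1 apart, and it supports nothing further. In RNA from a whole culture, more cells that express Folh1 and more Folh1 RNA per cell cannot be told apart.

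**Figure D1:**
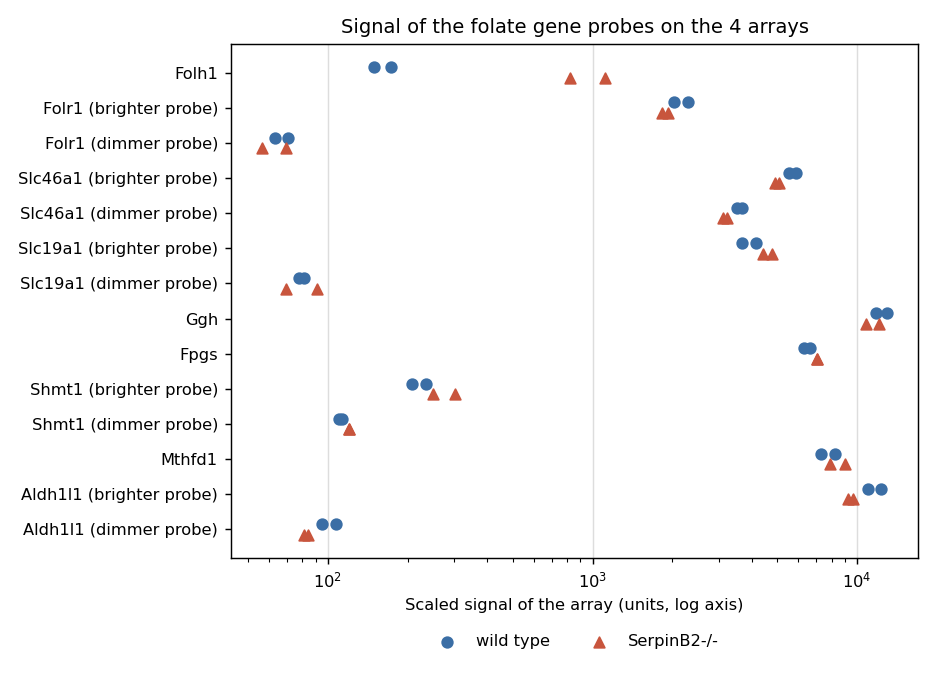
Scaled signal (units, log axis) of the 14 probes on each array, with circles for the 2 wild type and triangles for the 2 SerpinB2-/- samples. Folh1 lies at 149 and 173 against 819 and 1119, while for the other probes the genotypes lie close together or overlap.

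None of the 13 probes of the other 8 genes passed the threshold of 0.05 (limma with Benjamini-Hochberg adjustment over 24174 probes), where 15.5% of all probes tested did (5.65% higher and 9.84% lower in SerpinB2-/-). Without adjustment 6 of the 13 had a p under 0.05, of which 2 were higher and 4 lower, against 34.3% of all probes. The estimates ran from -0.30 to 0.32 on the log2 scale with a median of -0.09. Every 95% interval lay between -0.50 and 0.62, so that within this fit a rise of more than 1.54-fold or a fall of more than 1.42-fold was outside the interval of every one of these probes. The genotypes did not overlap for 9 of the 13 probes, 4 higher and 5 lower, where 64.5% of all probes did not overlap (31.1% higher and 33.4% lower). That share is close to the background.

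**Figure D2:**
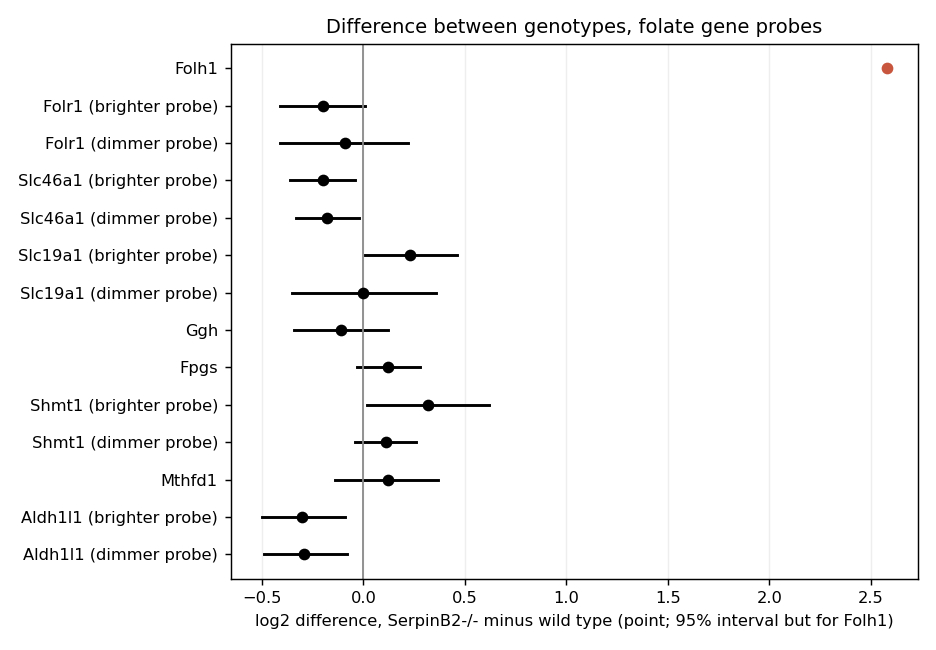
Difference between the genotypes on the log2 scale for each probe, with the 95% interval of the limma fit except for Folh1, which was chosen for its difference. The 13 other probes lie between -0.30 and 0.32, and Folh1 at 2.58.

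The folate receptor and the proton-coupled carrier had estimates below 0 at all 4 of their probes, none past the threshold. The brighter probe for Folr1, the receptor that binds folate at high affinity at the apical membrane of the proximal tubule, read 2031 and 2295 units in wild type against 1834 and 1929 in SerpinB2-/- samples. Both SerpinB2-/- values lay below both wild type values, by -0.20 ± 0.08 (log2; adjusted p = 0.165 by limma, n = 2 per genotype). The dimmer Folr1 probe, 10126 bp away, read 70.4 and 63.2 units against 56.3 and 69.3, and its groups overlapped (-0.09 ± 0.12). Slc46a1, the proton-coupled folate transporter of gut and kidney, had probes that start 128 bp from each other. Its brighter probe read 5541 and 5861 units in wild type against 5049 and 4876 in SerpinB2-/- samples, and its dimmer probe read 3514 and 3656 against 3209 and 3123. The 2 probes gave nearly the same difference, -0.20 ± 0.06 and -0.18 ± 0.06 (adjusted p = 0.0988 and 0.110 by limma), with no overlap between the genotypes at either.

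The reduced folate carrier Slc19a1 had an estimate above 0 at the brighter of its probes, which did not pass either. That probe read 3672 and 4143 units in wild type against 4771 and 4412 in SerpinB2-/- samples, a difference of 0.23 ± 0.09 with an interval of 0.01 to 0.46 (adjusted p = 0.132 by limma). The dimmer probe read 77.7 and 81.0 units against 69.4 and 91.0. Its genotypes overlapped and its estimate was 0.00 ± 0.14, with an interval of -0.35 to 0.36 that holds the estimate of the brighter probe.

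The pair of enzymes that set the glutamate chain inside the cell showed no call either. Ggh, the lysosomal hydrolase with the activity most like that of Folh1, read 12984 and 11751 units in wild type against 10830 and 12133 in SerpinB2-/- samples. The genotypes overlapped, and the interval of the difference (-0.11 ± 0.09) was -0.34 to 0.12. Fpgs, the synthase that lengthens the chain, read 6632 and 6292 units against 7050 and 7035. Both SerpinB2-/- values were higher, by 0.12 ± 0.06 with an interval of -0.03 to 0.28 (adjusted p = 0.221 by limma).

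Among the cytosolic enzymes the estimates ran in both directions. Shmt1, which transfers the carbon of serine to folate, read 208 and 234 units in wild type against 303 and 250 in SerpinB2-/- samples at its brighter probe, and 110 and 113 against 120 and 120 at the dimmer one. Both probes were higher in SerpinB2-/- without overlap, by 0.32 ± 0.12 (adjusted p = 0.130) and 0.11 ± 0.06 (0.247 by limma). Mthfd1, the trifunctional enzyme that interconverts the one-carbon forms, read 7315 and 8223 units in wild type against 8989 and 7863 in SerpinB2-/- samples, which overlapped (0.12 ± 0.10). Aldh1l1, which oxidises formyl folate to carbon dioxide and so drains the pool, had the lowest estimates of the 9 genes. Its brighter probe read 10967 and 12296 units in wild type against 9681 and 9248 in SerpinB2-/- samples, and its dimmer probe, which starts 937 bp away, had mean log2 signals of 6.66 ± 0.12 and 6.37 ± 0.03 (SD, n = 2 each). The differences were -0.30 ± 0.08 and -0.29 ± 0.08, with no overlap at either probe and with the lowest adjusted p of the 13 (0.0696 and 0.0730 by limma).

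The number of the 13 that passed differed between settings. With median scaling the median of all probes moved from -0.00 to 0.13, and 4 probes passed upward, the brighter Slc19a1 probe (0.37), Fpgs (0.26) and both Shmt1 probes (0.45 and 0.24, adjusted p = 0.0398 to 0.0490 by limma). Under that scaling Slc46a1, Aldh1l1 and the brighter Folr1 probe kept their sign, while Ggh and the dimmer Folr1 probe turned to 0.03 and 0.04. Over all probes the calls were 5205 higher and 1595 lower with median scaling, against 1367 and 2379. With the 75th percentile taken over detected probes 1 probe passed, Aldh1l1 at -0.33 (brighter probe). With a spread that depends on the mean 2 passed downward, Aldh1l1 at -0.30 and Slc46a1 at -0.20 (brighter probes). Leaving out any 1 array gave no call among the 13. Folh1 stayed at 2.35 to 2.80 without 1 array, at 2.71 with median scaling and at 2.19 with normexp background correction.

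**Figure D3:**
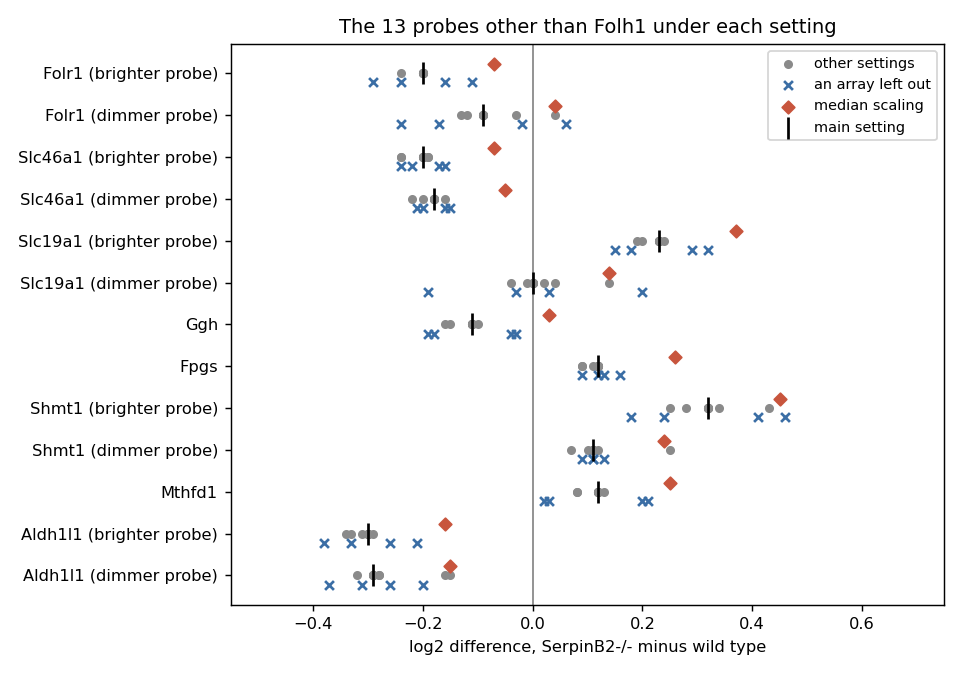
log2 difference between the genotypes of the 13 probes other than Folh1 under the main setting (bars), with median scaling (diamonds), with 1 array left out (crosses) and under the other settings (dots). Median scaling moved the probes to the right, and the dimmer Folr1 probe and Ggh then lay at 0.04 and 0.03.

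The wider folate cycle held calls that the 9 genes did not. Of 21 further genes of the cycle and of one-carbon metabolism, 18 were measured, each by its brightest probe. In SerpinB2-/- cells 5 of the 18 rose and none fell, with a median of 0.08, where of all 18392 genes 5.93% rose and 9.43% fell with a median of 0.01. The members that rose are known for making thymidylate and for the mitochondrial arm of the cycle, of which other measured genes did not pass. Tyms, the thymidylate synthase, read 220 and 226 units in wild type against 283 and 285 in SerpinB2-/- samples (0.35 ± 0.06, adjusted p = 0.0243 by limma). Both SerpinB2-/- values of Tyms lay above both wild type values.

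The mitochondrial enzymes that rose were Shmt2, Mthfd2, Mthfd1l and Aldh1l2. Aldh1l2, the mitochondrial counterpart of Aldh1l1, read 858 and 830 units in wild type against 1295 and 1181 in SerpinB2-/- samples (0.55 ± 0.07, adjusted p = 0.0149 by limma). Mthfd1l, which releases formate from mitochondria, read 6843 and 6819 against 9091 and 9125 (0.42 ± 0.06, adjusted p = 0.0162), and its other probe gave 0.38. Mthfd2, the dehydrogenase and cyclohydrolase before it, read 5675 and 5430 against 7411 and 7008 (0.38 ± 0.06, adjusted p = 0.0266), and Shmt2, the mitochondrial serine transferase, 7665 and 7627 against 9808 and 9513 (0.34 ± 0.06, adjusted p = 0.0263). All 4 were higher in every SerpinB2-/- sample than in any wild type sample. The estimate for Shmt2 was close to that of the brighter Shmt1 probe (0.32 ± 0.12), which did not pass, so a call for one and none for the other does not show that they differ, and the difference between them was not tested. Further mitochondrial genes of the list did not pass. Slc25a32, which brings folate into mitochondria, was at 0.20 ± 0.06 (adjusted p = 0.0977 by limma). Of the glycine cleavage genes Gldc was at -0.34 ± 0.08 (adjusted p = 0.0596 by limma), Gcsh at 0.08 and Dld at 0.23. Mthfd2l, the relative of Mthfd2, was at 0.09, Mtfmt at 0.06 and Sardh at 0.31 (adjusted p = 0.441, 0.522 and 0.0738 by limma). Mtr and Mtrr, which lead to methionine, were at -0.02 and 0.00, and Atic and Gart of purine synthesis at 0.01 and -0.13. Mtr gave -0.28 and Gart 0.21 at a further probe, neither past the threshold (adjusted p = 0.0531 and 0.184 by limma).

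**Figure D4:**
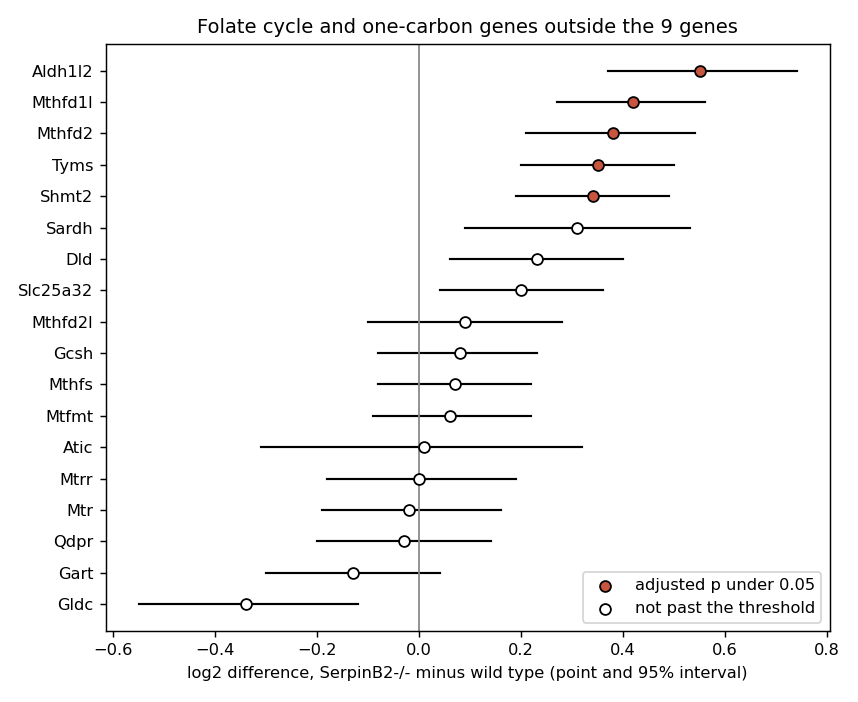
log2 difference between the genotypes, with 95% intervals of the limma fit, of the 18 measured folate cycle and one-carbon genes outside the 9 genes. The filled points are the 5 genes past the threshold, from Shmt2 at 0.34 to Aldh1l2 at 0.55, and Gldc is lowest at -0.34.

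None of the 5 calls held with each array left out in turn. Such a fit leaves 1 sample in a genotype, and calls over all probes fell too, so the loss does not point to any single array. Median scaling gave 8 of the 18, where 5205 of all 24174 probes were higher and their median was 0.13. The log2 differences themselves stayed at 0.32 to 0.62 when 1 array was left out. In the main setting 5.93% of all genes rose, with a median of 0.01. All 17 proliferation genes, of which Tyms is 1, rose in the same samples with a median of 0.59. Their summed signal was 163875 and 167342 units in wild type against 244873 and 232521 in SerpinB2-/- samples, and 6 to 15 of the 17 passed with 1 array left out (6 and 8 without wild type replicate 1 and 2, and 11 when SerpinB2-/- replicate 1 was left out). Their part in the folate cycle result was not tested.

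Of 15 measured genes of the methionine cycle and of cobalamin handling, 1 rose and none fell (median 0.09), a share near the 5.93% of all genes that rose. With median scaling 5 rose (median 0.22), and with a trended spread 3 rose and 1 fell. The background differed there too. With median scaling 5205 of all 24174 probes were higher and their median was 0.13, and with the trended spread 2216 were higher and 2715 lower. The gene that rose in the main setting was Cth, cystathionine gamma-lyase, which makes cysteine from the product of Cbs, at 3174 and 2962 units in wild type against 4991 and 4901 in SerpinB2-/- samples (0.69 ± 0.06, adjusted p = 0.00905 by limma). Cth passed with each array left out.

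Of 12 measured genes listed with further folate transport 2 fell and none rose by their brightest probes. The list median was -0.15, and of all genes 9.43% fell. Not all of the 12 carry folate. Slc19a2, a thiamine carrier, was at 0.01, and Izumo1r, a relative of the folate receptors that does not bind folate, at -0.18. Abcc2, an apical efflux pump for organic anions, read 108 and 136 units in wild type against 54.1 and 39.8 in SerpinB2-/- samples (-1.39 ± 0.18, adjusted p = 0.0155 by limma). With normexp, which raises dim signals by an offset, it was at -0.72, and without wild type replicate 2 it did not pass (adjusted p = 0.0540). Abcc3, its basolateral relative, read 1270 and 1235 units against 926 and 977 (-0.40 ± 0.06, adjusted p = 0.0219) and passed with no array left out. Other probes of a gene did not always follow its brightest one. The efflux pump Abcc5 was at -0.19 by its brightest probe (adjusted p = 0.101), while its other 3 probes passed as lower, at -0.48, -0.48 and -0.38 (adjusted p = 0.0154 to 0.0267 by limma). Lrp2, an endocytic receptor of the proximal tubule, was at 0.01 by its brightest probe and at -0.66 ± 0.09 by a further one, which passed as lower (adjusted p = 0.0155 by limma), so its probes disagree. Its partner Cubn was at 0.01 and Folr2, the receptor of macrophages, at -0.29 ± 0.08 (adjusted p = 0.0736 by limma).

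No measured relative of Folh1 passed as higher, where 5.93% of all genes rose and 9.43% fell, so with few genes none is near that share. Of 8 genes of related peptidases and transferrin receptors 6 were measured and 2 fell (1 with median scaling). Tfrc was at 0.36 ± 0.15 by its brightest probe, higher without overlap (adjusted p = 0.164 by limma), and at 0.03 and -0.06 by its other probes. The related peptidases Naalad2 and Naaladl1 were not well above background on any array. Naaladl2 read 133 and 129 units in wild type against 109 and 99.2 in SerpinB2-/- samples (-0.34 ± 0.07, adjusted p = 0.0413 by limma), and Tfr2, the transferrin receptor of iron sensing, 66.0 and 68.7 against 51.6 and 47.6 (-0.44 ± 0.07, adjusted p = 0.0220). With normexp both were at -0.19 and neither passed (adjusted p = 0.118 and 0.140 by limma). Naaladl2 passed with no array left out, and Tfr2 passed only without SerpinB2-/- replicate 1 among those 4 fits. Of 11 genes of NAAG and glutamate handling 7 were measured and, where 9.43% of all genes fell, 1 fell. This was the glutamate transporter Slc1a2, at 129 and 163 units in wild type against 97.2 and 82.1 in SerpinB2-/- samples (-0.70 ± 0.14, adjusted p = 0.0386 by limma). It did not pass when replicate 2 of either genotype was left out, with an adjusted p of up to 0.0962 by limma. Probes disagreed for Slc17a5, at -0.04 by the brightest and -0.37 by another (adjusted p = 0.709 and 0.0273 by limma). Grm3, the receptor for NAAG, and the NAAG synthase Rimklb were not well above background on any array. The related NAAG synthase Rimkla was measured and was lower without overlap, but did not pass (-0.31 ± 0.11, adjusted p = 0.126 by limma).

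Other hydrolases of the proximal brush border did not move in 1 direction. Of 12 listed genes 8 were measured, 2 rose and 1 fell by their brightest probes, with a median of -0.00. Of all genes 5.93% rose and 9.43% fell. The 8 include Lap3 (0.22) and Pepd (0.04), which are peptidases of the cytosol, so the median is not that of brush border enzymes alone. Ggt1 was at -0.24 and Ace at -0.20, neither past the threshold (adjusted p = 0.0677 and 0.114 by limma). Mme, neprilysin, was at -0.05 by its brightest probe, but its other 2 probes passed as lower, at -0.61 and -0.63 (adjusted p = 0.0237 and 0.0106 by limma), so its probes disagree. Enpep, the aminopeptidase that processes angiotensin, read 438 and 469 units in wild type against 826 and 907 in SerpinB2-/- samples (0.93 ± 0.08, adjusted p = 0.00780 by limma). Alpl, the alkaline phosphatase, read 82.8 and 82.3 against 179 and 148 (0.98 ± 0.10, adjusted p = 0.0107). The calls for Enpep and Alpl held with each array left out, and with normexp Alpl was at 0.63. Anpep, aminopeptidase N, read 497 and 475 units against 344 and 299 (-0.60 ± 0.09, adjusted p = 0.0186 by limma) and did not pass without either wild type replicate. Dpp4, Mep1a, Mep1b and Treh were not well above background on any array.

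**Figure D5:**
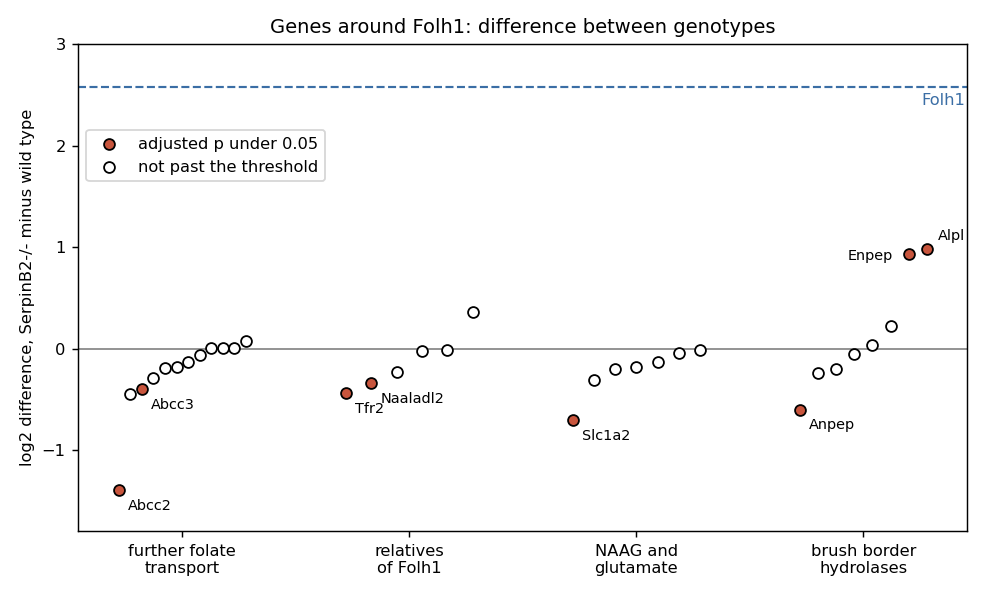
log2 difference between the genotypes of the measured genes in the lists of further folate transport, relatives of Folh1, NAAG and glutamate handling and brush border hydrolases. Filled points passed the threshold, from Abcc2 at -1.39 to Alpl at 0.98, and the dashed line marks Folh1 at 2.58.

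The genes with the profile most like that of Folh1 over the 4 arrays were found by the distance between log2 values, each less its mean over the arrays. They were Xlr4b (distance 0.69), Inhbb (0.71), Igsf21 (0.77), Xlr4a (0.78) and Pam (0.89), none of which is known as a folate gene. Their log2 differences were 2.03, 1.93, 2.27, 1.89 and 1.73. With 2 arrays per genotype, a profile near that of Folh1 is mainly that of another gene with a large rise. The list therefore supports nothing further about Folh1. Igsf21 was too dim on 1 wild type array to stand above background, so its distance and difference rest in part on a dim value.

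Marker lists were set against the label of tubular cells, with 5.93% of all genes higher and 9.43% lower as the background of each main-setting count. That background does not hold for median scaling, where 5205 of 24174 probes were higher and 1595 lower, or for fits with 1 array left out. Epithelial genes were measured in all samples, among them Cdh16 of kidney epithelium at 58416 to 94132 units, and 4 of 7 fell (2 fell and 1 rose with median scaling). Of the proximal tubule list 11 of 13 were measured and 1 rose, Hnf4a, with a list median of -0.01, while Slc34a1 read 35.3 to 49.3 units and Slc5a2 and Slc22a8 were too dim to be tested. Umod, Slc12a1 and Slc12a3 of the loop and distal tubule were too dim as well, and of 7 measured genes of those segments and the collecting duct 4 fell. Of 12 measured endothelial genes 10 fell and 1 rose (summed signal 17409 to 17901 units in wild type against 12329 to 14746 in SerpinB2-/-). Of 13 leukocyte and macrophage genes 7 fell and none rose (23485 to 25298 and 19901 to 20391 units), and of 11 measured fibroblast and pericyte genes 2 rose and none fell, or 7 rose with median scaling (468534 to 532499 and 570056 to 639486 units). Tek, Lum and Rgs5 were not well above background on any array. With 1 array left out the falls counted 2 to 10 for endothelium (3 and 2 without wild type replicate 1 and 2), 3 to 8 for leukocytes and 1 to 3 for epithelium. The fibroblast rises counted 0 without either wild type replicate, and Hnf4a did not pass without wild type replicate 2 or SerpinB2-/- replicate 2. The part of these cell types in the values of Folh1 and the folate genes was not tested.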

How the data were processed

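The deposited intensity of each Cy3 array came from Agilent's Feature Extraction software, per the file headers, run with spatial and multiplicative detrending and surrogates for dim values switched on and its separate background correction switched off. The deposited table of the authors' processed intensity had a 75th percentile of 1500 and a lowest value of 4 in each column, medians of 76 and 77 (wild type) and 68 and 71 (SerpinB2-/-), and followed the scanner values by 1 factor per array (0.698 to 0.787, with 96.6% to 98.1% of probes within 5%). It is linear with no centring of genes seen, and how it was scaled is not given in the sources used here. It served as an alternative.

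All 4 arrays lay on 1 slide with 1 scan. Outlier spots were left out, the 4 spots of a probe averaged, log2 taken and the 75th percentile of each array subtracted. Scaled signals add back the mean of these percentiles. Probes were used if more than 50% of their spots were well above background on both arrays of at least 1 genotype, which kept 24174. Names came from the files and, for 28328 probes, through accessions in a RefSeq gene table (GRCm38.p6), which gave no further probe to the 9 genes. SerpinB2-/- arrays were set against wild type arrays probe by probe (limma 3.58.1, R 4.3.3, eBayes with no trend). P-values were adjusted by Benjamini-Hochberg over all probes tested, at a threshold of 0.05. A gene in a list was represented by its brightest probe. The procedure was tested on simulated data with independent normal errors. These held no effect of slide position, so that test does not bear on position or on technical replication. "At least N-fold" compares the bright group with the detection limit of the dim group, or with the dim signal where that is higher. Genes were named by rule: all probes of the 9 genes, up to 6 genes past the threshold in each pathway list by size of change, the 5 nearest profiles and Serpinb2. Values of genes that did not pass were given for their role after they were seen. The genes and lists were chosen with earlier results of these data known. Alternatives were normexp (offset 50), quantile, median and detected-probe scaling, the authors' table, 2 other filters, fits over genes, outlier spots kept, trended and robust spreads, the replicate number as a block and each array left out. Some genes of these lists are not reported here and were left out of the list counts.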

Additional observations from a re-analysis of the deposited data

How the results depend on the processing

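Of the 13 probes other than Folh1, 0 passed in the main setting and in all probe-level alternatives but 3. These gave 4 with median scaling, 1 with the 75th percentile of detected probes and 2 with a trended spread. The fits over genes, by brightest probe or by mean of probes, tested the 8 genes in place of the 13 probes, and 0 passed. The sign of the estimate turned for the dimmer Folr1 probe with quantile normalization (0.04), median scaling (0.04) and without SerpinB2-/- replicate 1 (0.06, in a range of -0.24 to 0.06 with 1 array left out), and for Ggh with median scaling (0.03). The dimmer Slc19a1 probe, at 0.00, was at -0.04 with the percentile of detected probes, at -0.01 in the authors' table and at -0.19 to 0.20 with 1 array left out (-0.03 without wild type replicate 1). Over all probes 3746 passed, against 6800 with median scaling, 1 with dim probes kept (7509 at an unadjusted p under 0.05) and 978 to 2256 with 1 array left out. Of the folate cycle genes 5 passed, against 8 with median scaling, 8 with a trended spread (7 higher and 1 lower), 0 with dim probes kept and 0 to 2 with 1 array left out. With the replicate number as a block 2687 probes passed, 3 folate cycle genes and 0 of the 13 probes. Same-numbered arrays deviated together only weakly (correlation 0.209 over probes), and no label says what a number marks. The share of higher among all calls was 36.5%, 76.5% with median scaling, 47.2% with quantile normalization and 26.3% with the percentile of detected probes. With 4 arrays on 1 slide the number of arrays limits the precision.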
